A study of Homo sapiens with 12 samples.

Results

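The cathepsin genes are described here in FDX2-iKO ES2 cells, a human ovarian carcinoma line, across 4 culture conditions. The 10 genes, CTSS, CTSA, CTSB, CTSC, CTSD, CTSH, CTSK, CTSL, CTSO and CTSZ, were taken by symbol from a table of 58735 genes, and all 10 passed the filter on low counts that kept 16891 genes for testing. The list was chosen by the fold changes after FDX2 loss at 20% O2, where CTSS was one of the largest increases in earlier results of these libraries, so the values of that comparison are given as a description without p-values. FDX2 is a mitochondrial ferredoxin that works in the assembly of iron-sulfur clusters. In these cells the endogenous FDX2 gene had been knocked out by CRISPR-Cas9, and an editing-resistant, HA-tagged FDX2 was expressed from a TetON promoter, which doxycycline (Doxy) keeps on. All 4 groups carried the knockout and the transgene, and the cells were 1 clone, clone #1 unless the study states otherwise. The groups were 20% O2 + Doxy and 20% O2 wo Doxy, both cultured for 6 days, and 3% O2 + Doxy and 3% O2 wo Doxy, both cultured for 4 days at 20% O2 and 3 days at 3% O2, with 3 libraries in each and 12 in all. Withdrawal of Doxy and loss of FDX2 cannot be told apart in these libraries, and neither can the oxygen level and the different total time in culture of 6 and 7 days.

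Cathepsins are proteases of the lysosome, where they degrade proteins that arrive by endocytosis and autophagy. Most of the 10 are cysteine proteases of the papain family, while CTSD is an aspartic protease and CTSA a serine carboxypeptidase. They are made as inactive precursors, reach the lysosome largely through mannose 6-phosphate receptors, and are held in check outside it by cystatins and by some serpins. In tumors, several of them are known to be secreted and to act on the extracellular matrix.

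The start regions of cathepsin genes are of interest because MITF, TFEB and TFE3 bind the E-box letters CACGTG before many lysosomal genes. A RefSeq promoter table of build GRCh38.p14 held 6 of the 10 genes (CTSA, CTSC, CTSD, CTSH, CTSL and CTSZ), and the 250 bases before each start were searched on both strands. The windows of CTSA and CTSD are shown because they held the E-box (in capitals), and those of CTSC and CTSL as examples of the 4 windows without it, which include CTSH and CTSZ.
CTSA: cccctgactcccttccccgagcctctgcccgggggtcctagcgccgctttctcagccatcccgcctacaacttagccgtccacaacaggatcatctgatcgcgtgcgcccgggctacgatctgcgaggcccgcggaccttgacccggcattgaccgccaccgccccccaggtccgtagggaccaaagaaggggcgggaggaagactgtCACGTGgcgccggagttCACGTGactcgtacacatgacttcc
CTSD: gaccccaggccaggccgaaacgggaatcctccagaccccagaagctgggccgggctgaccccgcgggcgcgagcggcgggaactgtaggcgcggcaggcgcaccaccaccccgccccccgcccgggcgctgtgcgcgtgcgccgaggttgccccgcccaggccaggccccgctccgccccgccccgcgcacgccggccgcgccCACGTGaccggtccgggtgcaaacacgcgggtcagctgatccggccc
CTSC: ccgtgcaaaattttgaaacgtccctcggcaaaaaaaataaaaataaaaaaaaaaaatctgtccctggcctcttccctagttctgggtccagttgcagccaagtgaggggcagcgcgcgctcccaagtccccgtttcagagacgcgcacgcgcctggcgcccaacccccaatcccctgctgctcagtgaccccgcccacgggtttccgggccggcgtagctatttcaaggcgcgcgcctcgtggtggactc
CTSL: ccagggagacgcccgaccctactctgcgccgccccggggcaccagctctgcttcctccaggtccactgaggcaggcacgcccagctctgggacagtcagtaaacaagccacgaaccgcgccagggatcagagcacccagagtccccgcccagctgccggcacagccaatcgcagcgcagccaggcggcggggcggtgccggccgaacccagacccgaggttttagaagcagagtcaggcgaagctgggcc
The 4 windows are chr20:45891085-45891334 (plus strand, CTSA), chr11:1763928-1764177 (minus strand, CTSD), chr11:88337737-88337986 (minus strand, CTSC) and chr9:87725869-87726118 (plus strand, CTSL), each written 5′ to 3′ and ending at the base before the RefSeq start, which is base -1. CTSA held 2 E-boxes, at bases -42 to -37 and -25 to -20, and CTSD held 1, at -47 to -42. Among 35116 windows of the same length, 6.34% held CACGTG. The shorter letters ACGTG, the core of hypoxia response elements, were found only inside these E-boxes and occur in 18.5% of all windows. The GC box GGGCGG lay in all 6 windows and in 42.6% of all windows. Neither the longer CLEAR element of lysosomal genes, which contains the E-box (0.308% of all windows), nor the AP-1 site TGACTCA (4.20%), the gamma-activated site TTCNNNGAA (6.57%) or the interferon-stimulated response element (3.02%) matched any of the 6 windows. A match is given as letters in a window and not as a binding site.

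Total counts per library lay between 24958386 and 34313637, and CTSS was read 53 to 405 times per library. Levels are given as CPM, the counts relative to the library total after TMM scaling, with the SD over 3 libraries. FDX2 itself had 2 to 6 counts per library with Doxy and 4 to 13 without at 20% O2, and 2 to 12 with Doxy and 5 to 7 without at 3% O2. It was thus not higher with Doxy, and these low counts gave no check of the labels. Of its annotated exon bases 70.9% overlap other annotated genes, and whether the transgene is counted under this gene was not tested. Of 12 leukocyte and macrophage markers, TYROBP and LAPTM5 were at 0 in all libraries and PTPRC, ITGAM, SPI1 and AIF1 had at most 2 counts, while LYZ had 27 to 70, FCER1G 9 to 27 and CSF1R and CD163 up to 14. FCER1G was higher without Doxy at 20% O2 (log2 fold change 0.99) and LYZ at 3% than at 20% O2 without Doxy (0.86, SE 0.21). The summed level of the 12 was 1.66 to 2.65 CPM at 20% O2 + Doxy, 2.47 to 2.76 CPM at 20% O2 wo Doxy, 3.01 to 3.75 CPM at 3% O2 + Doxy and 3.68 to 4.71 CPM at 3% O2 wo Doxy. Of 11 markers of epithelial or ovarian carcinoma cells, KRT7, KRT8, KRT18, PAX8 and the mesenchymal VIM were present, whereas MUC16 was at 0 and EPCAM and CDH1 had at most 3 counts. The summed level of this list, most of it VIM (a mean of 2958 CPM over all libraries), was lower at 20% O2 wo Doxy (2912 to 3079 CPM) than in the other conditions (3861 to 5432 CPM), and the part of either marker list in the results was not tested. The libraries also differed in how strongly GC-rich genes were read. For genes with a mean log2 CPM above 2, each gene was centered on its mean over the 12 libraries. The GC trend is the log2 difference between the upper and lower tertile by GC content after this step, relative to the average library. It was 0.32 in replicate 1 of 20% O2 + Doxy, 0.37 in replicate 3 of 3% O2 + Doxy and 0.34 in replicate 2 of 3% O2 wo Doxy. The other 9 libraries had -0.29 to 0.10, with all 3 of 20% O2 wo Doxy between -0.29 and -0.16. The part of this GC trend in the results was not tested beyond the GC correction and the fits without the 3 high libraries. These are given below for the members whose call they changed.

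The 10 mRNAs covered a wide range of levels. Per kilobase of exon, CTSB (chr8:11842524-11869448, GRCh38), a broadly expressed protease, was the highest in every condition, at 49.9 ± 4.3 CPM per kilobase with Doxy and 60.9 ± 1.9 CPM per kilobase without Doxy at 20% O2 (SD, n = 3), and at 57.6 ± 5.8 and 67.1 ± 2.9 CPM per kilobase at 3% O2. CTSL (chr9:87725519-87731393), an endopeptidase, followed with group means of 32.2 to 38.0 CPM per kilobase, and CTSA (chr20:45890144-45898820), a carboxypeptidase that also protects beta-galactosidase and neuraminidase, with 24.1 to 31.6 CPM per kilobase. CTSL and CTSA overlapped at 20% O2 wo Doxy, and their order turned when the longest transcript was used as the length (CTSA 46.2 against CTSL 40.7 CPM per kilobase at 20% O2 + Doxy). CTSC (chr11:88293592-88337787), the dipeptidyl peptidase that activates serine proteases of leukocyte granules, was 4th of the 10 with Doxy, at 17.5 ± 0.9 and 17.3 ± 1.1 CPM per kilobase, and 7th without Doxy, at 11.0 ± 0.1 and 13.2 ± 0.3 CPM per kilobase, where it overlapped CTSD at 3% O2. CTSK, known best as the collagenase of osteoclasts, took the opposite way in the order, from 5th at 11.9 ± 1.2 and 13.6 ± 0.3 CPM per kilobase with Doxy to 4th at 25.8 ± 0.4 and 22.8 ± 0.9 CPM per kilobase without it. With the longest transcript as length, CTSC was 4th with and 5th without Doxy, and CTSK 7th with and 4th without. With Doxy, the ranges of CTSK and CTSD overlapped, and so did those of CTSD and CTSZ.

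CTSD (chr11:1752752-1764573), the main aspartic protease of lysosomes, had group means of 11.8 to 13.6 CPM per kilobase and CTSZ (chr20:58995185-59007247), a carboxypeptidase, of 10.6 to 13.6 CPM per kilobase, and the 2 overlapped in every condition. CTSH (chr15:78921058-78949574), an aminopeptidase, and CTSO (chr4:155924118-155953917), a less studied member of the papain family, lay lower, at 1.74 to 2.26 and 1.91 to 3.01 CPM per kilobase. CTSS, an endopeptidase best known for processing the invariant chain of MHC class II in antigen-presenting cells, was the lowest of the 10 in 3 conditions, at 0.429 ± 0.023 CPM per kilobase at 20% O2 + Doxy. At 20% O2 wo Doxy it reached 2.78 ± 0.35 CPM per kilobase, which overlapped CTSO (3.01 ± 0.17) and lay above CTSH (2.16 ± 0.16). With the longest transcript as length it stayed the lowest there as well. The sum over the 10 genes was 902 ± 39 CPM at 20% O2 + Doxy, 982 ± 27 CPM at 20% O2 wo Doxy, 982 ± 59 CPM at 3% O2 + Doxy and 1054 ± 31 CPM at 3% O2 wo Doxy. CTSB made up 41.1%, 46.1%, 43.5% and 47.3% of these sums.

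**Figure D1:**
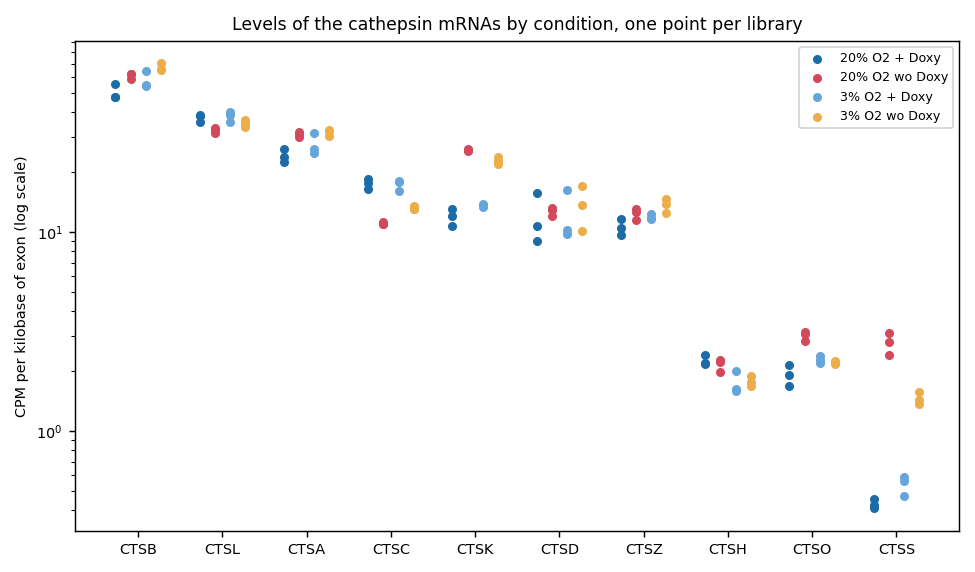
Levels of the 10 cathepsin mRNAs in CPM per kilobase of exon (log axis), with 1 point per library and colors for the 4 conditions, in order of the mean at 20% O2 + Doxy. CTSB lies highest in every condition, and CTSS moves from 0.429 CPM per kilobase at 20% O2 + Doxy to 2.78 at 20% O2 wo Doxy.

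At 20% O2, the cells without Doxy had more CTSS, CTSK and CTSO mRNA and less CTSC mRNA than those with Doxy. CTSS stood at 1.73, 1.92 and 1.79 CPM in the 3 libraries with Doxy and at 10.2, 11.9 and 13.2 CPM in those without. The groups did not overlap, and the log2 fold change was 2.70 (SE 0.13), a 6.48-fold higher level. In RNA from whole cultures, a change in the share of cells that express a gene and a change in RNA per cell cannot be told apart. CTSK stood at 20.1, 24.6 and 22.7 CPM with Doxy and at 48.8, 49.2 and 47.9 CPM without, a log2 fold change of 1.11 (SE 0.07). CTSO stood at 4.95, 5.65 and 6.35 CPM with Doxy and at 8.34, 9.29 and 9.04 CPM without, a log2 fold change of 0.65 (SE 0.10). CTSK and CTSO were thus higher in every library without Doxy than in any with it. CTSC went the other way, with 188, 201 and 209 CPM with Doxy and 128, 125 and 124 CPM without, a log2 fold change of -0.67 (SE 0.06). Over 15 alternatives, GC correction included, the log2 fold changes stayed within 2.59 to 2.79 for CTSS, 1.03 to 1.18 for CTSK, 0.55 to 0.74 for CTSO and -0.76 to -0.64 for CTSC.

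The other members differed less at 20% O2. CTSA was at 132 to 153 CPM with Doxy and 174 to 187 CPM without, a log2 fold change of 0.36 (SE 0.09). CTSB was at 352 to 408 CPM and 437 to 462 CPM, a log2 fold change of 0.29 (SE 0.08). CTSL was at 84.5 to 91.1 CPM with Doxy and at 73.9 to 78.2 CPM without, a log2 fold change of -0.22 (SE 0.06). The groups of these 3 genes did not overlap. CTSZ (log2 fold change 0.22, SE 0.08), CTSD (0.11, SE 0.25) and CTSH (-0.06, SE 0.10) overlapped between the groups and did not pass the threshold of an adjusted p under 0.05. In all, 5 members passed it as higher (CTSS, CTSK, CTSO, CTSA and CTSB) and 2 as lower (CTSC and CTSL), and the same 7 did not overlap. Among all tested genes 35.3% were called (17.6% higher and 17.7% lower) and 52.3% did not overlap, and nothing is read from the count of members because this comparison chose the list. The call of CTSB rested on replicates 2 and 3 with Doxy (log2 fold change 0.25 without either), and that of CTSL on replicate 2 with Doxy and replicates 1 and 3 without (-0.20, -0.22 and -0.22). CTSZ was called without replicate 1 with Doxy (0.28), with only genes of 10 or more counts per library kept (0.23), with the GC correction (0.33) and without the 3 libraries of high GC trend (0.28), and the last 2 called CTSD as well.

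**Figure D2:**
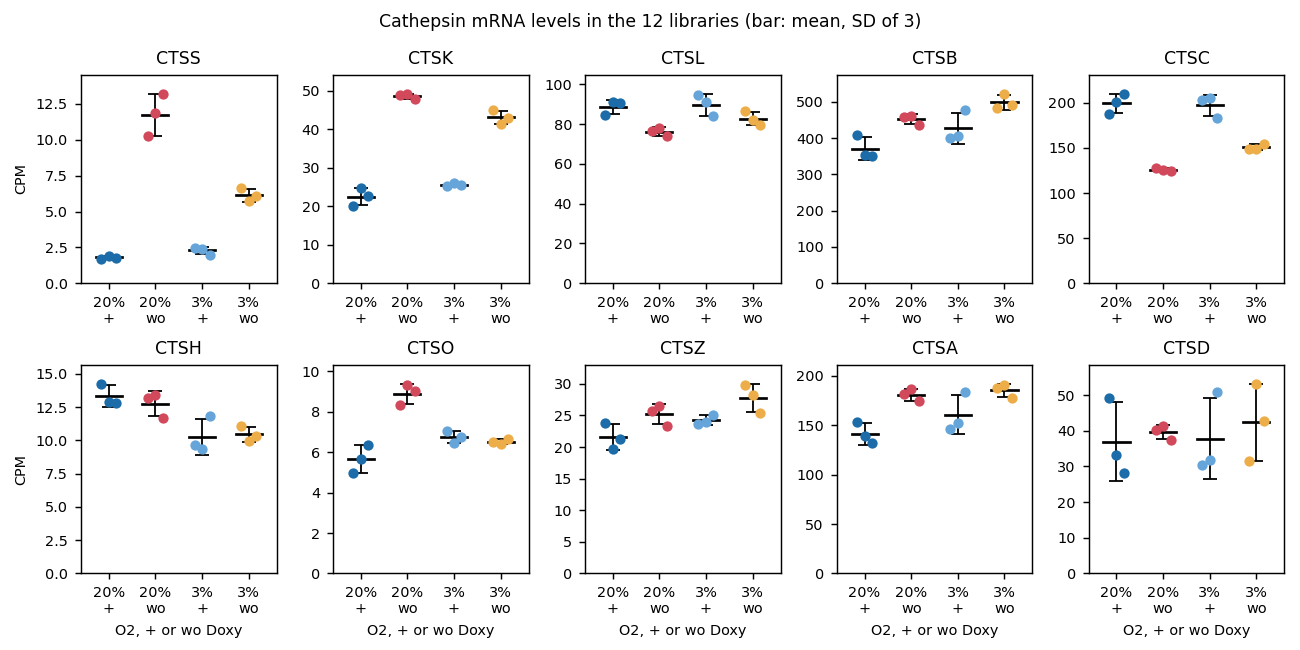
CPM of each cathepsin gene in the 12 libraries, with 1 panel per gene, 1 point per library and the mean with its SD over 3 libraries, at 20% and 3% O2 with (+) or without (wo) Doxy, on axes that start at 0. CTSS and CTSK lie higher and CTSC lower without Doxy at both oxygen levels, and CTSO is higher without Doxy at 20% O2 (8.34 to 9.29 CPM) but not at 3% O2 (6.39 to 6.64 CPM).

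FDX2 loss at 3% O2 was measured in 6 other libraries, so p-values are given there. The list was still made with earlier results of these data known. The fit also shares its estimate of the spread with the 20% O2 libraries. CTSS and CTSK rose and CTSC fell, the same 3 genes that stood furthest apart at 20% O2, with smaller fold changes. CTSS stood at 2.49, 2.37 and 2.00 CPM with Doxy and at 6.64, 5.75 and 6.05 CPM without. Every library without Doxy exceeded every library with it, and the level was 2.68-fold higher (log2 fold change 1.42, SE 0.12, edgeR quasi-likelihood, Benjamini-Hochberg adjusted p = 0.000166). CTSK stood at 25.2, 26.2 and 25.5 CPM with Doxy and at 44.9, 41.4 and 43.0 CPM without, again with no overlap (log2 fold change 0.75, SE 0.07, edgeR adjusted p = 0.000241). CTSC stood at 203, 205 and 183 CPM with Doxy and at 149, 149 and 155 CPM without, a log2 fold change of -0.38 (SE 0.06, edgeR adjusted p = 0.0028). In an edgeR fit to these 6 libraries alone the value for CTSC was -0.41 and the adjusted p 0.0549 (from 1.01e-08 to 0.228 over 15 alternatives). CTSS and CTSK kept their calls in 14 of 15 alternatives each.

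These 3 of 10 members were called at 3% O2, against 7.31% of all tested genes (4.2% higher and 3.11% lower). The other 7 did not pass the threshold. CTSB had log2 fold change 0.22 (95% interval 0.05 to 0.39, edgeR adjusted p = 0.115), CTSA 0.20 (0.02 to 0.39, adjusted p = 0.179) and CTSZ 0.20 (0.01 to 0.38, adjusted p = 0.185). CTSL had -0.12 (95% interval -0.25 to 0.01, edgeR adjusted p = 0.261) and CTSD 0.17 (-0.38 to 0.71, adjusted p = 0.731). CTSO stood at 7.06, 6.46 and 6.72 CPM with Doxy and at 6.52, 6.39 and 6.64 CPM without, overlapping groups with a log2 fold change of -0.05 (95% interval -0.26 to 0.16, edgeR adjusted p = 0.799). CTSH was at 9.32 to 11.8 CPM with Doxy and 9.92 to 11.1 CPM without (log2 fold change 0.03, 95% interval -0.20 to 0.25). The groups did not overlap for CTSS, CTSK, CTSC, CTSB and CTSZ, 5 of 10 against 24.6% of all tested genes. Without replicate 3 of 3% O2 + Doxy, the library with the strongest GC trend, CTSA (0.31) and CTSB (0.31) were called as well, and without the 3 libraries of high GC trend their values were 0.27 and 0.25, also called. The GC correction left CTSB at 0.22 and called.

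**Figure D3:**
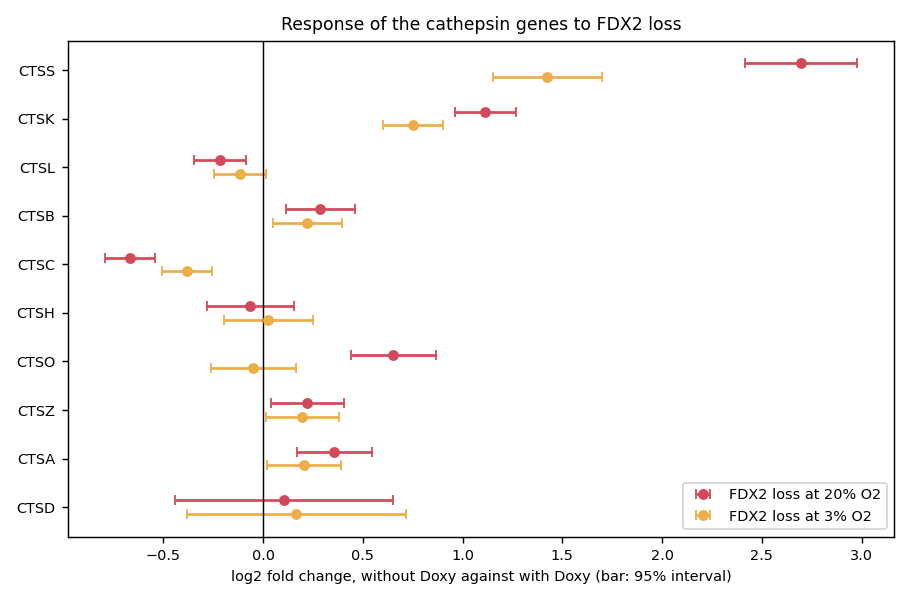
Log2 fold change of each cathepsin gene without Doxy against with Doxy, at 20% O2 (red) and at 3% O2 (yellow), with 95% intervals from the edgeR fit to 12 libraries. CTSS (2.70 and 1.42) and CTSK (1.11 and 0.75) lie to the right at both oxygen levels, CTSC (-0.67 and -0.38) to the left, and CTSO lies at 0.65 at 20% O2 and at -0.05 at 3% O2.

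Whether the response differed between the oxygen levels was taken as the difference of the log2 fold changes, 3% minus 20% O2. This difference contains the comparison that chose the list, so its values are a description without p-values. CTSS stood at -1.27 (SE 0.17), CTSO at -0.70 (SE 0.14) and CTSK at -0.36 (SE 0.10). CTSO had higher counts without Doxy at 20% O2 and overlapping groups at 3% O2, while CTSS and CTSK were higher without Doxy at both, by less at 3% O2. CTSC stood at 0.28 (SE 0.08), with a smaller decrease at 3% O2, and did not pass the threshold. The 3 members past it were all lower, against 7.29% of all tested genes called in either direction (3.21% higher and 4.08% lower), and nothing is read from this count. The other 6 members had differences between -0.15 (CTSA) and 0.10 (CTSL), with CTSD at 0.06 (95% interval -0.71 to 0.83) the least precise.

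The call of CTSK in this difference was lost in 13 of 19 alternatives, 10 of them fits without 1 library, with values of -0.43 to -0.29 over the fits without 1 library. Of the fits without 1 library, the call was kept without replicate 2 of 20% O2 + Doxy and without replicate 3 of 3% O2 + Doxy. CTSO lost its call without replicate 2 (-0.67) or replicate 3 (-0.69) of 20% O2 wo Doxy and without the filter on low counts (-0.70), and CTSC gained one in 5 of 19, among them those without replicate 1 of 20% O2 + Doxy (0.32) or replicate 3 of 3% O2 + Doxy (0.24). With a correction of each library for GC content, 5 members were called, CTSA (-0.37) and CTSC (0.43) besides CTSS, CTSK and CTSO, and of all genes 1746 were then higher and 934 lower, against 542 and 689 before.

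With Doxy, cells at 3% O2 were compared with those at 20% O2, and no member passed the threshold, against 2.02% of all tested genes (1.63% higher and 0.385% lower). At an unadjusted p under 0.05 the edgeR test gave 5 members, but the share of all tested genes at that cutoff was not counted. DESeq2 called 1 member after adjustment, and 620 of 16891 genes in all. That 1 was CTSH, which stood at 14.3, 12.9 and 12.8 CPM at 20% O2 and at 9.62, 9.32 and 11.8 CPM at 3% O2 (log2 fold change -0.38, SE 0.10). Its groups did not overlap, and without replicate 3 of 3% O2 + Doxy its value was -0.49 and it was called. CTSS, CTSK and CTSO were a little higher in every library at 3% O2, with log2 fold changes of 0.34 (SE 0.13), 0.19 (SE 0.07) and 0.25 (SE 0.10), none past the threshold. With CTSH these were 4 of 10 members whose groups did not overlap, against 15.4% of all tested genes. This comparison shares its 20% O2 libraries with the one that chose the list. The values of the members are thus a description without p-values, and nothing is read from their counts.

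Without Doxy, the cells at 3% O2 had less CTSO and CTSS mRNA and more CTSC mRNA than those at 20% O2. The 20% O2 libraries of this comparison were used in choosing the list, so its values are a description without p-values. CTSS was lower at 3% O2, with a log2 fold change of -0.94 (SE 0.12). CTSO was at 8.34 to 9.29 CPM at 20% O2 and at 6.39 to 6.64 CPM at 3% O2 (log2 fold change -0.45, SE 0.10). CTSC was at 124 to 128 CPM and 149 to 155 CPM (log2 fold change 0.26, SE 0.06), and these groups did not overlap either. CTSK had 47.9 to 49.2 CPM at 20% O2 and 41.4 to 44.9 CPM at 3% O2 (log2 fold change -0.17, SE 0.07), and CTSH had -0.29 (SE 0.10), both short of the threshold. With the replicate number as a block in a fit to these 6 libraries, CTSK was called (-0.19).

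The 3 members called without Doxy, 1 higher and 2 lower, stood against 25.8% of all tested genes (13.9% higher and 11.9% lower), and 7 of 10 did not overlap, against 49.4%. The values of CTSA (0.03), CTSZ (0.14), CTSB (0.14), CTSL (0.12) and CTSD (0.10) did not pass the threshold. CTSC lost its call without replicate 2 (0.25) or replicate 3 (0.25) of 20% O2 wo Doxy, and CTSH, at -0.37 to -0.25 over 16 alternatives, gained one in 8 of them, DESeq2 and the GC correction included, and CTSK in 4. With the GC correction CTSA turned to -0.21 and was called, and of all genes 3368 were then higher and 1855 lower, against 2348 and 2012 before. With the block and the GC correction together CTSO was at -0.30 and not called.

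CTSD varied with the libraries more than with the conditions. It stood at 49.3, 33.3 and 28.0 CPM at 20% O2 + Doxy, at 40.1, 41.4 and 37.4 CPM at 20% O2 wo Doxy, at 30.5, 31.9 and 50.8 CPM at 3% O2 + Doxy and at 31.4, 53.0 and 42.7 CPM at 3% O2 wo Doxy. The highest library of 3 of these groups was the one with the high GC trend. The CTSD mRNA is the most GC-rich of the 10, at 64.0%, followed by CTSA at 60.7% and CTSZ at 58.3%, while CTSC (38.2%), CTSS (39.5%) and CTSO (40.2%) are the poorest. Without the 3 libraries of high GC trend, the log2 fold change of CTSD upon FDX2 loss at 20% O2 was 0.36, and with the GC correction it was 0.35, both called, against 0.11 in the fit to all libraries as they are. In addition, 52.7% of the exon bases of CTSD overlap other annotated genes, 1 of them on the same strand, and 28.5% of those of CTSA overlap genes on the opposite strand, so reads there may be counted for either gene or for none. The other 8 members share no exon bases with another gene.

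**Figure D4:**
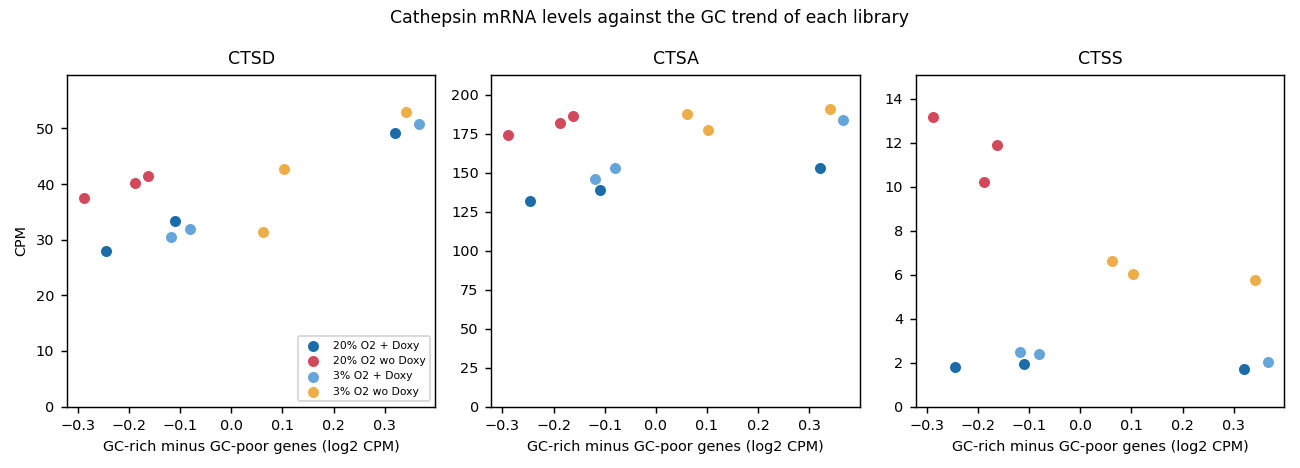
CPM of CTSD, CTSA and CTSS in the 12 libraries (axes from 0) against the GC trend of each library, colored by condition. The GC trend is the mean log2 difference between GC-rich and GC-poor genes, each gene centered on its mean over the 12 libraries. The 3 libraries with a GC trend of 0.32 to 0.37 hold the highest CTSD values, 49.3 to 53.0 CPM, while the CTSS values lie together by condition.

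CTSS and CTSK lie side by side on the minus strand of chromosome 1, at chr1:150730196-150765957 and chr1:150796208-150808323 (GRCh38). The 2 mRNAs ran together over the 12 libraries, with Pearson's r = 0.97 for log2 CPM, given as a description over points that share the 4 conditions. Within 250000 bases of either start, 13 other named genes were tested. Of these, 4 were higher and 1 was lower upon FDX2 loss at 20% O2, where 35.3% of all tested genes were called, with a median log2 fold change of 0.18. At 3% O2, where 7.31% of all were called, 1 was higher and none lower, with a median of 0.03. The 5 at 20% O2 were ADAMTSL4 (1.24, SE 0.32, at a mean of 1.26 CPM), MLLT11, GOLPH3L, ARNT and, lower, MCL1 (-0.37, SE 0.04). The 1 at 3% O2 was MLLT11, with a log2 fold change of 0.53 (SE 0.12, edgeR adjusted p = 0.0245) and 0.88 (SE 0.12) at 20% O2. The nearest tested genes on either side of the pair, GOLPH3L and ARNT, had log2 fold changes of 0.33 (SE 0.06) and 0.18 (SE 0.05) at 20% O2 and of -0.13 (SE 0.06) and -0.04 (SE 0.05) at 3% O2. At 3% O2, the values of CTSS and CTSK stood above those of both flanking genes. They did at 20% O2 as well, but that comparison chose the list, so nothing is read from it. ADAMTSL4 (1.24) lay above CTSK (1.11) there.

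**Figure D5:**
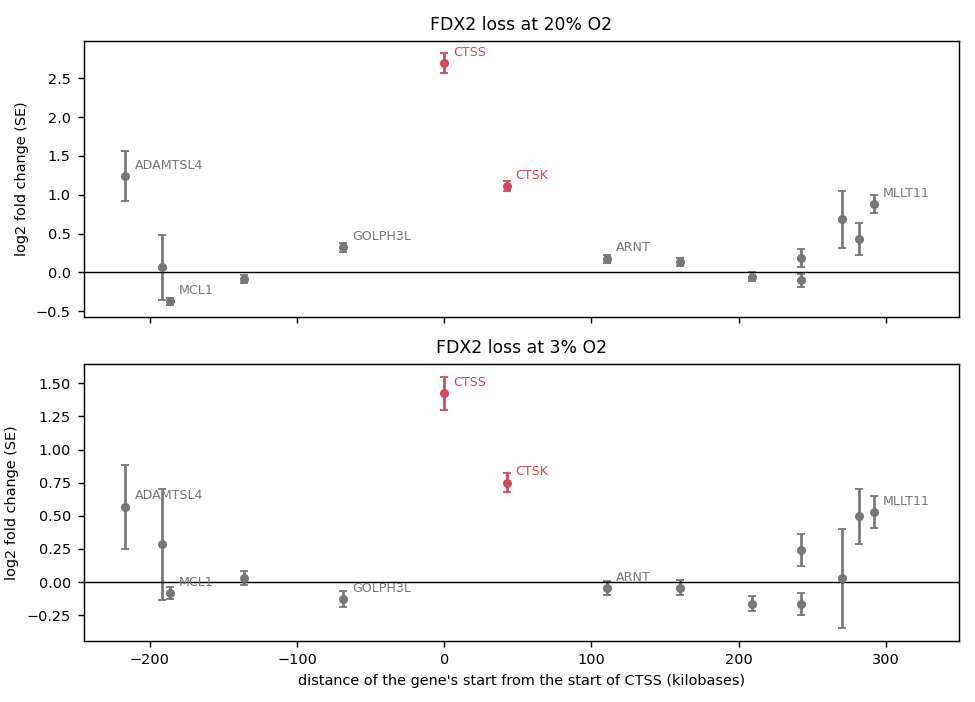
Log2 fold change without Doxy against with Doxy, with its SE, of CTSS, CTSK (red) and the other tested genes around them (grey), by the distance of each gene's start from that of CTSS in kilobases, at 20% O2 (top) and 3% O2 (bottom). CTSS (2.70 and 1.42) and CTSK (1.11 and 0.75) stand above the flanking GOLPH3L and ARNT, and the distant MLLT11 (0.88 and 0.53) is also above 0. The comparison at 20% O2 chose the list.

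Some members ran together over the 12 libraries. These correlations are a description over points that share the 4 conditions, those of the comparison that chose the list included. Besides CTSS and CTSK, the log2 CPM of CTSA and CTSB (r = 0.96) and of CTSC and CTSL (r = 0.90) were close over the 12 libraries, and CTSC ran against CTSS (r = -0.97) and CTSK (r = -0.93). CTSH was close to none of the others, with r between -0.31 and 0.17. Among 10608 other genes with a symbol and a mean of at least 5 CPM, the 5 whose log2 CPM was most like that of CTSS were GPNMB (r = 0.992), HECW2 (0.991), GCNT2 (0.988), ABHD2 (0.986) and TENM1 (0.986). GPNMB, a transmembrane glycoprotein, had 8.16 and 43.2 CPM on average with and without Doxy at 20% O2, and 11.4 and 25.1 CPM at 3% O2. With Spearman's correlation in place of Pearson's, 1 of the 5, GPNMB, was kept.

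Genes that inhibit or sort cathepsins were listed next, and the calls at 20% O2 stand against 35.3% of all tested genes. Of the cystatins, the tight-binding inhibitors of papain-family cathepsins, 2 of 11 were tested. CSTB, cystatin B of the cytosol, was higher without Doxy at 20% O2 (log2 fold change 0.19, SE 0.05) and rose at 3% O2 with Doxy (0.26, SE 0.05, edgeR adjusted p = 0.0288), and CST3, the secreted cystatin C, passed in no comparison (0.29, SE 0.12, at 20% O2). Of the serpins known to inhibit cathepsins, 1 of 5, SERPINB6, was tested, with 0.32 (SE 0.06) at 20% O2 and 0.16 at 3% O2, where it did not pass. Whether SERPINB6 acts on any of the 10 members was not tested. Among the 10 genes of processing and sorting, 1 was higher and 2 were lower upon FDX2 loss at 20% O2, with a median of 0.002 against 0.01 over all tested genes. GNPTG, a subunit of the enzyme that makes the mannose 6-phosphate tag, had 0.50 (SE 0.10), and GGA2 (-0.25) and SORT1 (-0.18), both of which sort cargo at the Golgi, were lower. SORT1 fell at 3% O2 as well (-0.20, SE 0.05, edgeR adjusted p = 0.0342).

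Among 4 partners of CTSA and CTSD, 2 were higher without Doxy at 20% O2 and 1 rose at 3% O2. Of all tested genes, 17.6% and 4.2% were called higher. PSAP, the precursor of the saposins, which CTSD cleaves, stood at 342 and 558 CPM on average at 20% O2 with and without Doxy (log2 fold change 0.71, SE 0.06), and rose at 3% O2 from 381 to 459 CPM (0.27, SE 0.06, edgeR adjusted p = 0.0282). The difference of the responses was -0.44 (SE 0.09). NEU1, the neuraminidase that CTSA protects, had 0.55 (SE 0.13) at 20% O2 and 0.28 (SE 0.13, edgeR adjusted p = 0.229) at 3% O2. GLB1 (0.11) and GALNS (-0.12), other enzymes of that complex, did not pass at 20% O2. Of the MiT/TFE factors that bind the E-box, MITF was higher at 20% O2 (0.22, SE 0.06) and had -0.04 at 3% O2, TFE3 had 0.23 and 0.27 without passing, TFEB was at 0.309 to 0.504 CPM in the group means, and TFEC was not tested.

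CTSS is known from antigen processing, so the MHC class II pathway was listed as well. Of 10 genes 8 were tested, and upon FDX2 loss at 20% O2 HLA-DMA was higher (log2 fold change 0.75, SE 0.21, at 1.55 and 2.61 CPM), CIITA, the master regulator, was lower (-0.45, SE 0.13), and 6 did not pass, with a median of -0.04. At 3% O2 RFX5, a factor of class II promoters, was the 1 gene of the list that rose (0.20, SE 0.05, edgeR adjusted p = 0.0454). Of all tested genes 35.3% were called at 20% O2 and 7.31% at 3% O2 (4.2% higher), and nothing is read from these counts. HLA-DRA was at 1.70 to 2.36 CPM and CD74, the invariant chain, at 0.952 to 2.02 CPM in the group means. Among 6 tested factors of the interferon response, with a median log2 fold change of 0.25 at 20% O2, STAT2 was among those higher there (0.54, SE 0.08). At 3% O2 none of the 6 was called by edgeR, against 7.31% of all tested genes. DESeq2 called none of them either, against 1925 of 16891 genes. At an unadjusted p under 0.05 there was 1, a cutoff for which the share of all tested genes was not counted. Of the 5 cathepsin genes left out of the list, CTSG was at 0 in all libraries and CTSE was too low to test. The other 3, CTSF, CTSV and CTSW, passed in no comparison by edgeR or DESeq2. Upon FDX2 loss at either oxygen level 1 of 3 was at an unadjusted p under 0.05, again without a share of all tested genes. CTSF, with 16.6 and 18.4 CPM on average with and without Doxy at 20% O2, was the most abundant of them, against 0.960 and 0.662 CPM for CTSV.

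Other proteins of the lysosome gave a background for the members. Of 31 tested hydrolases other than cathepsins, 10 were higher and 1 was lower without Doxy at 20% O2, against 17.6% and 17.7% of all tested genes. Their median log2 fold change was 0.13, against 0.01 for all tested genes. The median of the 10 cathepsins was 0.25, but this comparison chose their list, so nothing is read from it. TPP1, a serine peptidase, stood at 104 and 217 CPM on average with and without Doxy, HEXA had 0.68 and ASAH1, acid ceramidase, 0.65. At 3% O2 the medians were 0.08 for the hydrolases, 0.18 for the cathepsins and 0.04 for all genes. By edgeR, TPP1 was the 1 hydrolase of 31 called, against 7.31% of all genes (TPP1 0.39, SE 0.06, edgeR adjusted p = 0.00252). DESeq2 called 2 of the 31, against 1925 of 16891 genes, and 7 had an unadjusted edgeR p under 0.05. With Doxy, TPP1 was also higher at 3% than at 20% O2 (0.38, SE 0.06). The responses of TPP1 (-0.67), HEXA (-0.52), ASAH1 (-0.45) and IDS (-0.44) were smaller at 3% than at 20% O2. Of 15 lysosomal membrane proteins, 8 were higher at 20% O2, against 17.6% of all tested genes, among them SLC38A9 (0.59), LAMP2 (0.54), NPC1 (0.53) and CD63 (0.52), with a median of 0.26. At 3% O2 none of the 15 was called by edgeR, against 7.31% of all tested genes, and the median was 0.10. DESeq2 called 2 of the 15, against 1925 of 16891 genes. At an unadjusted p under 0.05 there were 4, and the share of all tested genes at that cutoff was not counted. Without Doxy, 6 of the 15 were lower at 3% than at 20% O2, against 11.9% of all tested genes, among them SLC38A9 (-0.42, SE 0.09).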

How the data were processed

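Poly(A) RNA was converted to cDNA with random hexamers and sequenced on a DNBSEQ-T7. Per the labels and the study's methods, the authors aligned reads to GRCh38 with STAR and counted them with featureCounts, and the deposited values are raw counts per gene. Versions, annotation and strand setting are not given in the sources used here. The series text says that read files of replicates 1 and 2 of 20% O2 + Doxy were lost in part, while their counts are included. The samples are named biological replicates.

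Genes were kept by filterByExpr (minimum count 10, minimum total 15), scaled by TMM and tested with edgeR 4.0.16 (quasi-likelihood, R 4.3.3, limma 3.58.1) in 1 fit of 4 condition means to 12 libraries, with Benjamini-Hochberg adjustment over 16891 genes and a threshold of 0.05. Total counts per library were 24958386 to 34313637, and replicates differed by more than sampling noise. The median chi-square per degree of freedom was 1.30 among replicates of 20% O2 wo Doxy, against 3.02 to 3.90 in other groups. The fit to 12 libraries pools this spread, also for the tests at 3% O2. Exon lengths, GC content and overlaps came from GENCODE release 29, which held all 58735 genes. Current symbols matched 41937 genes. The members and all lists were chosen with earlier results of these data known. From each list, up to 4 called genes with the largest fold changes were named, besides all 10 cathepsins, other cathepsins, MiT/TFE factors and partners. Values of some listed genes are not reported here. DESeq2 1.42.0, other scalings, filters and thresholds, a replicate block, a GC correction and fits without some libraries were alternatives. Over 11133 genes, same-numbered deviations of the 20% and 3% O2 libraries without Doxy had correlations of 0.247 to 0.363. Differently numbered ones had -0.432 to 0.076. Other pairs of groups were looked at too, and whether the replicate numbers pair any libraries is not known. The scripts were tested on simulated data.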

Additional observations from a re-analysis of the deposited data

Results flagged for a closer look

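Besides CTSS, 2 cathepsins had a fold change without Doxy that differed between 20% and 3% O2 past the threshold. The difference contains the comparison that chose the genes, so it is given as a description. For CTSO the difference was -0.70 on the log2 scale (SE 0.14), with CTSO higher in 3 of 3 libraries without Doxy at 20% O2 and overlapping groups at 3% O2, and the call was lost in 3 of 19 alternatives. For CTSK it was -0.36 (SE 0.10), with CTSK higher in 3 of 3 libraries without Doxy at both oxygen levels, and the call was lost in 13 of 19 alternatives, the replicate block among them. Groups of 3 were not tested for single libraries that stand apart in a gene.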

How the results depend on the processing

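Each group held 3 libraries, which limits the precision most for CTSD (SE 0.25 at 20% O2) and for the low counts of CTSS with Doxy (53 to 77 per library). Doxy and FDX2 loss, and oxygen and culture time, cannot be told apart. Most values of single members kept their direction and their side of the threshold under the alternatives (138 for FDX2 loss at 20% O2, 136 each for FDX2 loss at 3% O2 and for 3% against 20% O2 with and without Doxy, and 157 for the difference of the responses), and the exceptions stand in the report or follow here.

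For FDX2 loss at 20% O2, 3645 genes were called at an adjusted p under 0.01, and 910 genes, 2 cathepsins among them, with at least a 2-fold change. The GC correction and the fit without the 3 libraries with the highest GC trend called 9 cathepsins each, with 7469 of 16891 and 7296 of 17173 genes. Keeping only genes with 10 or more counts per library gave 8, with 5681 of 14312 genes. The main fit called 7 cathepsins and 5961 of 16891 genes. Nothing is read from these counts, because this comparison chose the list. Leaving out 1 library at a time gave 4423 to 5575 genes and 5 to 8 cathepsins, and CTSD values of -0.065 to 0.36. For FDX2 loss at 3% O2, 678 genes were called with no filter (CTSH at -0.0075), 218 in the fit to only the libraries compared, 1925 by DESeq2, 404 at an adjusted p under 0.01, 118 with at least a 2-fold change (1 cathepsin), 2449 with the GC correction and 2610 without the 3 libraries with the highest GC trend (5 cathepsins). Leaving out 1 library at a time gave 581 to 1605 genes, 3 to 5 cathepsins, CTSD values of -0.027 to 0.44 and CTSH values of -0.049 to 0.14.

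For 3% against 20% O2 with Doxy, 128 genes were called in the fit to only the libraries compared, 620 by DESeq2 (1 cathepsin), 181 at an adjusted p under 0.01, 92 with at least a 2-fold change, 864 with the GC correction (563 higher and 301 lower, 1 cathepsin) and 520 without the 3 libraries with the highest GC trend (2 cathepsins). CTSC turned to 0.030 and CTSL to -0.016 with the GC correction. Leaving out 1 library at a time gave 190 to 388 genes, 0 to 1 cathepsins, and values of -0.070 to 0.031 for CTSC, -0.024 to 0.067 for CTSL and -0.24 to 0.29 for CTSD. For 3% against 20% O2 without Doxy, 1975 genes were called at an adjusted p under 0.01 and 451 with at least a 2-fold change (0 cathepsins). There were 5 cathepsins in the fit to only the libraries compared, where 5589 of 16357 genes were called, and by DESeq2, with 4760 of 16891. The GC correction also gave 5, with 5223 of 16891 genes. So did the fit without the 3 libraries with the highest GC trend, with 5745 of 17173. The main fit called 3 cathepsins and 4360 of 16891 genes. With the GC correction CTSA turned to -0.21, CTSD to -0.24 and CTSZ to -0.048, and without the 3 libraries CTSD was at -0.10. Leaving out 1 library at a time gave 2321 to 4200 genes, 2 to 3 cathepsins, and values of -0.00049 to 0.066 for CTSA and -0.095 to 0.27 for CTSD.

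For the difference of the responses, 672 genes and 1 cathepsin were called with no filter, 1932 genes by DESeq2, 382 genes and 1 cathepsin at an adjusted p under 0.01, 186 genes and 1 cathepsin with at least a 2-fold change, 2680 genes and 5 cathepsins with the GC correction and 2568 genes without the 3 libraries with the highest GC trend. CTSD turned to -0.28 with the GC correction and to -0.13 without the 3 libraries. Leaving out 1 library at a time gave 520 to 2191 genes, 1 to 4 cathepsins, and values of -0.14 to 0.025 for CTSB, -0.21 to 0.34 for CTSD and -0.10 to 0.038 for CTSZ.

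The replicate number as a block in the fit to all libraries gave 676 genes for FDX2 loss at 3% O2, 218 for 3% against 20% O2 with Doxy and 615 for the difference of the responses. In fits to only the libraries compared, the block gave 12 genes for 3% against 20% O2 with Doxy. For FDX2 loss at 3% O2 it gave 1 gene and 0 cathepsins. CTSS was then at 1.40 and CTSK at 0.72 (edgeR adjusted p = 0.129 for both), and CTSC at -0.41 (edgeR adjusted p = 0.228). Same-numbered correlations were -0.61 to 0.63 at 3% O2, and whether the numbers pair these libraries is not known. For 3% against 20% O2 without Doxy, the block and the GC correction together put CTSA at -0.23, CTSD at -0.27 and CTSZ at -0.065. The fit with the block and the GC correction together and the one without the 3 libraries were added after the data had been seen. For the difference of the responses the fit to only the libraries compared is the fit to all 12, and was not run again. The cause of these differences was not tested, beyond the smaller number of libraries where some were left out.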
